A study of Mus musculus with 2 samples.

Results

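The cells described here are type 2 conventional dendritic cells (cDC2) of 1 cluster, number 46 in the cell table deposited with the study. They are the table entries named cDC2 in that cluster whose barcode held at least 1000 mouse-gene UMIs, that is counted RNA molecules, in the deposited library. The rule found 88 of the 8767 cells of the library. Of these, 1 carried the hashtag of another treatment and was left out, so 87 of 8716 cells were used. The cells just inside the limit held 2945 and 6757 mouse-gene UMIs, and the highest cluster 46 entry outside it held 230.

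The cells came from tumours of MC38, a colon carcinoma line of the mouse, grown under the skin of mice with human Fc gamma receptors, which every group carried. CD45+ cells were sorted 4 days after treatment with hIgG1 antibodies to mouse GITR, given as 2 injections of 100 µg, 3 days apart. The antibodies differ in agonism and Fc: N297A is an agonist with a null Fc, GA-aFuc an agonist with an enhanced Fc, and GITR/Syn GA-aFuc is not an agonist and has an enhanced Fc. The control, Untreated in the cell table, received PBS. The stated design has 3 mice for each treatment, while the library used here held 6 hashtags, taken as 6 mice: 2 N297A, 1 GA-aFuc, 1 GITR/Syn GA-aFuc and 2 Untreated. Age, sex and background strain were not found in the labels.

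Conventional dendritic cells take up antigen in tissues and present it to T cells. Those of type 1 (cDC1) are known for presenting antigen of dead cells to CD8 T cells, and those of type 2 for presenting antigen on MHC class II to CD4 T cells. Mature dendritic cells rich in immunoregulatory molecules (mregDC) arise from both types and carry Ccr7. Some cDC2 of the mouse share Cd209a, Ly6c2 and Ccr2 with cells of monocyte origin, while cDC2 of other tissues lack them.

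Cluster 46 gave 17 and 8 cells in the N297A mice, 16 in the GA-aFuc mouse, 20 in the GITR/Syn GA-aFuc mouse, and 10 and 16 in the Untreated mice. Their UMIs, of mouse genes and 6 human Fc gamma receptor genes, summed to 98040 to 246715 per mouse and 1139331 in all, with a median of 12676 UMIs and 3388 genes per cell. The cells were set against 101 cDC2 of the cluster numbered 36, 47 cDC1, 57 mregDC and 4104 macrophages of the same mice. Median UMIs per cell were 9377 in cluster 36, 18345 in cDC1, 8745 in mregDC and 15297 in macrophages. Levels below are UMIs per 1000000 (CPM) summed over the cells of a mouse, means carry the SD over 6 mice, and ranges run over the 6 mice. The deposited clusters were taken to be made from the expression of these cells, so differences between populations are a description with no test. A gene is called higher or lower where the fit over the 6 mice gave an adjusted p under 0.05 and a difference of at least 2-fold. A gene could be tested through its level in either population alone, and could then hardly come out other than higher in that population. Genes named by size were picked for the same direction in all 6 mice, so this agreement and separate ranges add no support. How often ranges lie apart over all genes was not counted.

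The 3 markers given for these cells did not all bear out the label. H2-Aa, an MHC class II chain, had a UMI in 87 of 87 cells. A UMI was also seen in 3944 of 4104 macrophages and 470 of 907 CD8 T cells, so detection alone does not set cluster 46 apart. The H2-Aa level was 7777 ± 746 CPM in cluster 46, 7874 ± 670.1 CPM in cluster 36 and 2754 ± 549 CPM in macrophages. Flt3, the receptor that dendritic cell precursors need, was seen in 45 of 87 cells at 56.4 ± 27.2 CPM. It was at 50.4 ± 25.9 CPM in cluster 36 and 0.352 ± 0.185 CPM in macrophages. Flt3 in cluster 46 was lower than in cDC1 (log2 difference -1.28, SE 0.3) and mregDC (-2.12, SE 0.29), each in 6 of 6 mice. Cd209a, a lectin often used to mark cDC2, was seen in 6 of 87 cells (6.9%), against 35 of 101 cluster 36 cells (34.7%). With each cell thinned to 2000 UMIs, which left out 1 cell of cluster 36 and 0 of cluster 46, it was in 4.6% of cluster 46 cells (95% exact interval 1.27 to 11.4), 24.0% of cluster 36 cells and 0.11% of CD8 T cells, which should lack it and had a median of 8160 UMIs. Intervals cover counting error only. The cells thus carry the class II and Flt3 markers of dendritic cells, while most had no detected Cd209a at this depth. Of 9 tested members of a list of 10 cDC2 markers, 7 were higher in cluster 46 than in macrophages and 1, Sirpa, was lower. Over all genes tested 7.01% were higher and 13.8% lower. Against cluster 36, 0 of 8 tested were higher and 1, Cd209a, lower. Against cDC1, 1 of 4 was higher (Kmo) and 1 lower (Flt3), and against mregDC 3 of 7 were higher and 2 lower (Flt3 and Zbtb46). The shares over all genes are given with each comparison below. The list thus sets cluster 46 apart from macrophages more than from other dendritic cells.

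Markers of T, NK and B cells and of neutrophils were scarce, while the summed level of the monocyte list was not low. Summed per mouse, 8 T cell markers reached 4.45 to 32.4 CPM, 7 NK cell markers 7.91 to 51.5 CPM, 5 B cell markers 0 to 10.2 CPM and 5 neutrophil markers 0 to 20.4 CPM. Cd79a, S100a8, S100a9, Retnlg, Cxcr2 and Trac were at 0 in all 6 mice. A list of 12 macrophage markers summed to 665 to 1132 CPM in cluster 46, 954 to 4292 CPM in cluster 36 and 22698 to 28919 CPM in macrophages. Of these markers Fcgr1 was at 0 in cluster 46. It was too low in macrophages as well to be tested, so its 0 says nothing of identity. Free RNA, read from barcodes with at most 50 UMIs, held 22429 CPM of these markers, and its part in the levels of the dendritic cells was not tested. A list of 9 monocyte markers summed to 1958 to 3149 CPM in cluster 46, 3155 to 4604 CPM in cluster 36 and 5716 to 7520 CPM in monocytes. The sum in cDC1, 1483 to 2591 CPM, overlaps that of cluster 46, so the level is not particular to it. Of this list Chil3 and F13a1 were at 0 in cluster 46, Ccr2 had a median of 19.1 CPM and Ly6c2 one of 205 CPM. The sum thus does not stand for each gene of the list. Plac8, another member, was not called against cluster 36 (log2 difference -0.21, SE 0.11) or cDC1 (0.36, SE 0.09). A list of 7 markers of plasmacytoid dendritic cells summed to 863 to 1336 CPM in cluster 46, 1224 to 1468 CPM in cluster 36 and 1581 to 1895 CPM in macrophages, with Ly6d and Klk1 at 0 in cluster 46. The highest second hashtag in any cell of cluster 46 took 7.79% of its hashtag UMIs. No doublet caller was run.

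**Figure D1:**
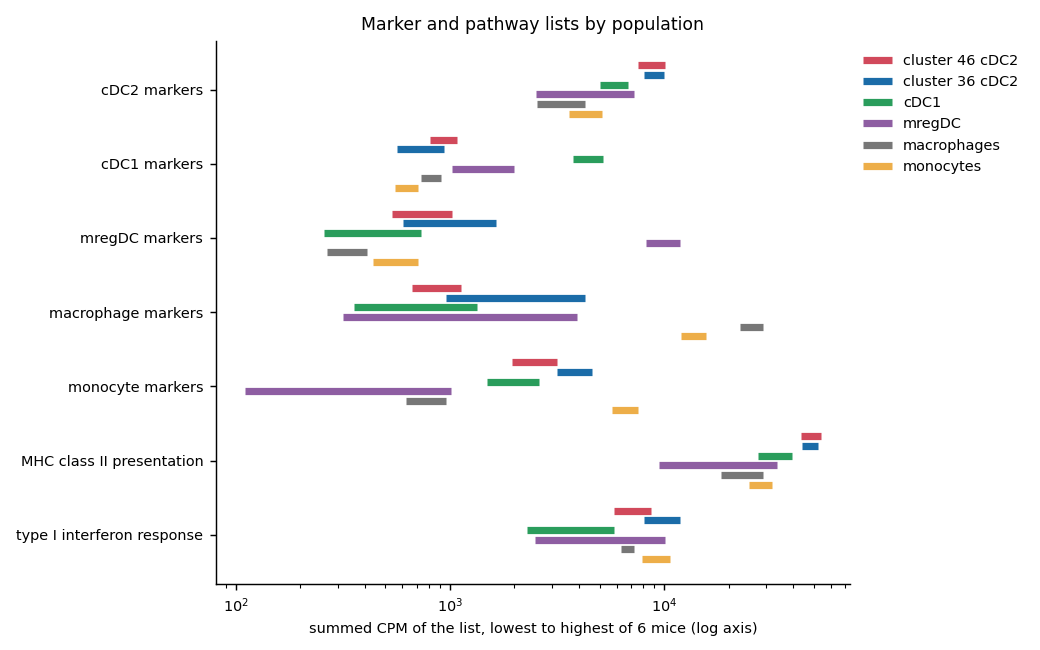
Summed levels of 7 gene lists (rows) in cluster 46 cDC2 and 5 other populations, as bars from the lowest to the highest of 6 mice on a log axis of CPM. For monocyte markers the cluster 46 bar, 1958 to 3149, lies below the cluster 36 bar, 3155 to 4604.

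Set against cluster 36, cluster 46 had more Plet1, Itgae, Actn1 and Cdh1 and less Cd209a, Ccr2, Ccl5, Lyz2 and Ly6c2. Of 2776 genes tested, 50 (1.8%) were higher in cluster 46 and 47 (1.69%) lower. Of 12 genes of MHC class II presentation 0 were called, with a median log2 difference of 0.02, the same as over all genes tested. The class II sum was 43397 to 54020 CPM in cluster 46 and 44064 to 52302 CPM in cluster 36.

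The genes named as higher in cluster 46 include the surface molecules Plet1, Itgae and Cdh1. Plet1, a surface protein with a lipid anchor, was at 584 and 133 CPM in the N297A mice, 677 CPM in the GA-aFuc mouse, 369.5 CPM in the GITR/Syn GA-aFuc mouse and 562 and 178 CPM in the Untreated mice. In cluster 36 the same mice, in that order, had 50.3, 66, 187, 15.8, 15.5 and 0 CPM. Plet1 was higher in cluster 46 by a fitted log2 difference of 2.96 (SE 0.44), although the ranges overlap. Itgae encodes CD103, an integrin chain that binds E-cadherin. It ranged over 95 to 249 CPM (median 164) in cluster 46 and 0 to 68.6 CPM (median 17.9) in cluster 36 (log2 difference 2.69, SE 0.35). The ranges of Itgae did not overlap. Cdh1, which encodes E-cadherin itself, ranged over 84.3 to 183 CPM (median 117) in cluster 46 and 5.08 to 81.1 CPM (median 27.4) in cluster 36 (log2 difference 1.76, SE 0.31), again with no overlap. Ppp1r14a, an inhibitor of myosin phosphatase, was too low for the fit, at 40.5 to 173 CPM in cluster 46 against 0 to 14.4 CPM in cluster 36.

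Within cluster 46 these genes were seen in large and overlapping shares of the cells. Itgae had a UMI in 57 of 87 cells, Plet1 in 51, Cdh1 in 62, Ppp1r14a in 46 and Epcam, an epithelial adhesion molecule also found on Langerhans cells, in 31. Itgae and Plet1 were seen together in 43 cells and neither of them in 22. All 5 genes were seen in 15 cells (17.2%) and none in 9 (10.3%), while 21 cells (24.1%) had 3 of the 5. Of the 6 cells with Cd209a, 2 had Itgae and 0 had Plet1. At 2000 UMIs per cell, Itgae was in 19.5% of cluster 46 cells, 4.0% of cluster 36 cells, 36.2% of cDC1 and 1.43% of CD8 T cells. Plet1 was then in 37.9% of cluster 46 cells, 11 of 100 cluster 36 cells, 36.2% of cDC1 and 0 of 907 CD8 T cells, which allows a share of up to 0.406%. The share with Ccr2 was 1.15% in cluster 46, 32.0% in cluster 36 and 11.7% in CD8 T cells, some of which are known to carry it.

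Actn1, an actin crosslinker, was at 158 ± 55.8 CPM in cluster 46 and 30 ± 25.3 CPM in cluster 36, and the noncoding RNA Pvt1 at 109.9 ± 42.7 and 23.2 ± 22.2 CPM. Ipcef1, the insulin receptor substrate Irs2, the DNA-binding protein Nabp1, the gamma-secretase subunit Aph1c and the kinase Prkcb completed the genes named by size, with log2 differences of 1.57 to 1.66. Kit, the receptor for stem cell factor, was at 178 ± 41.9 CPM in cluster 46 and 90.4 ± 32.1 CPM in cluster 36 (log2 difference 1.04, SE 0.25). Wdfy4, needed for cross-presentation by cDC1, was at 411 ± 71.7 CPM in cluster 46 and 197 ± 94.7 CPM in cluster 36 (log2 difference 1.14, SE 0.19). Wdfy4 and Itgae were the called genes among 4 tested cDC1 markers. The other 2, Irf8 and Naaa, were not called and had negative log2 differences (-0.66, SE 0.21, and -0.16, SE 0.28). Irf8 was lower in 6 of 6 mice. The cDC1 receptor gene Xcr1 was at 4.83 ± 9.73 CPM in cluster 46.

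The genes lower in cluster 46 held markers that cDC2 can share with monocytes and macrophages. Cd209a was at 8.11 and 0 CPM in the N297A mice, 4.45 CPM in the GA-aFuc mouse, 34.8 CPM in the GITR/Syn GA-aFuc mouse and 95 and 0 CPM in the Untreated mice. In cluster 36 the same mice had 230, 234, 37.4, 158, 575 and 343 CPM. Cluster 46 was lower (log2 difference -3.52, SE 0.48). The ranges overlap through the first Untreated mouse, in which 11 of 12 Cd209a UMIs came from 1 cell. Ccr2, the receptor by which monocytes leave the bone marrow, ranged over 0 to 79.1 CPM (median 19.1) in cluster 46 and 125 to 292 CPM (median 174) in cluster 36, with no overlap (log2 difference -2.97, SE 0.42). Ly6c2, a monocyte surface antigen, ranged over 93.5 to 578 CPM (median 205) in cluster 46 and 172 to 1473 CPM (median 927) in cluster 36 (log2 difference -1.92, SE 0.35). It has a near-identical neighbour gene, so its counts are uncertain. Ccr2 and Ly6c2 were the called genes among 4 tested monocyte markers, whose median log2 difference was -1.27.

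Macrophage genes went the same way: C1qa, C1qb, C1qc and Csf1r were lower, 4 of 7 tested markers, with a median of -1.07. C1qa, a chain of the first complement component, was at 114 ± 36.9 CPM in cluster 46 and 414 ± 300.7 CPM in cluster 36, with 4159.9 CPM in free RNA. Lyz2, the lysozyme of myeloid cells, was at 158 ± 90 CPM in cluster 46 and 814 ± 502 CPM in cluster 36, with 2565 CPM in free RNA. The chemokine gene Ccl5 was at 54.1 ± 29.7 CPM in cluster 46 and 521 ± 338 CPM in cluster 36, with 940.1 CPM in free RNA. The part of free RNA in these differences was not tested. Ccl5 and Lyz2 each lost their call in some fits without 1 mouse. Tmem176b, Ahnak, the matrix protein Tgfbi, Marcksl1 and Gm15987 completed the genes named by size. Cd40, the receptor through which CD4 T cells activate dendritic cells, was at 55.4 ± 25.1 CPM in cluster 46 and 148 ± 52.3 CPM in cluster 36 (log2 difference -1.43, SE 0.27). Cxcl9, a chemokine for activated T cells, was at 557 ± 226 CPM in cluster 46 and 1549 ± 781 CPM in cluster 36 (log2 difference -1.37, SE 0.29). Of 8 tested chemokines Ccl5 and Cxcl9 were lower and 0 higher.

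**Figure D2:**
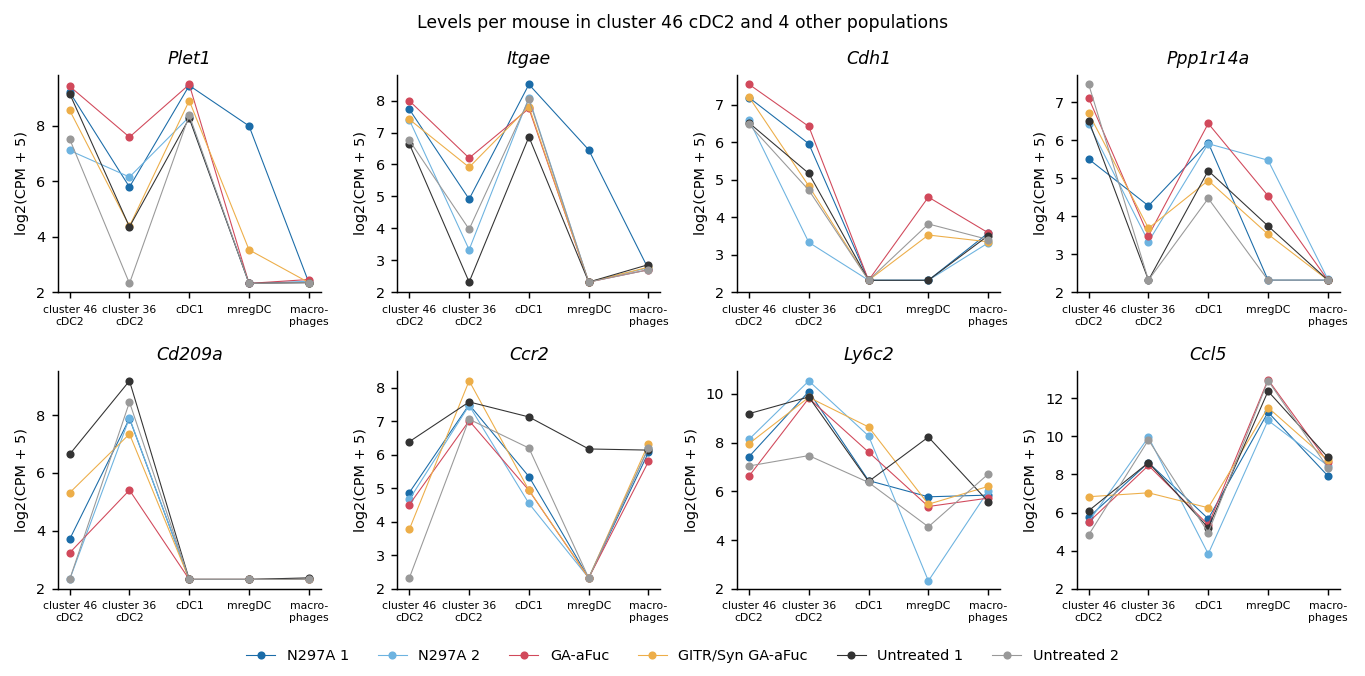
Levels of 8 genes in each of 6 mice (points joined by lines), as log2(CPM + 5), in cluster 46 cDC2, cluster 36 cDC2, cDC1, mregDC and macrophages. Plet1, Itgae and Cdh1 lie higher in cluster 46 than in cluster 36 in 6 of 6 mice, and Cd209a, Ccr2, Ly6c2 and Ccl5 lower in 6 of 6. These genes were picked by a rule that asked for the same direction in every mouse.

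Genes of the type I interferon response, which are switched on by signals of the interferon receptor, differed in direction with the population compared. Against cluster 36, 24 of 27 list genes were tested, 21 had a negative difference, 4 were lower and 0 higher, with a median of -0.61, beside 1.69% lower and 1.8% higher over all genes. The 4 were the antiviral genes Mx1, Oasl1 and Rsad2 and the DNA sensor Ifi204. Mx1 ranged over 32.4 to 51 CPM in cluster 46 and 56.1 to 247 CPM in cluster 36, with no overlap. Rsad2 was at 114 and 153 CPM in the N297A mice, 93.5 CPM in the GA-aFuc mouse, 183 CPM in the GITR/Syn GA-aFuc mouse and 31.7 and 74.9 CPM in the Untreated mice. Its range in cluster 36 was 124 to 708 CPM.

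Against cDC1 the direction was the opposite: 12 of 20 tested genes were higher in cluster 46 and 1, Oasl1, was lower, with a median of 1.18, beside 11.3% higher and 5.89% lower over all genes. Ifit3, of the RNA-binding Ifit family, was at 193 ± 39.8 CPM in cluster 46 and 9.66 ± 6.29 CPM in cDC1, and Rtp4, a receptor chaperone, at 225 ± 53.5 and 6.67 ± 5.98 CPM. Neither gene's mice overlapped. Against mregDC 5 of 20 were higher, Ifit3, Ifi44, Ifi213, Stat2 and Rtp4, and Oasl1 was again lower. Of the 20, 15 had a positive difference, with a median of 0.77 beside 0.03 over all genes. Over all genes 14.5% were higher and 16.5% lower. Against macrophages 0 of 27 were higher and Oasl1 and Rsad2 were lower, with a median of 0.12 beside -0.23 over all genes. Over all genes 7.01% were higher than in macrophages and 13.8% lower, so the list was called no more often than other genes. Members of the Ifit and Ifi200 families are alike in sequence, so their counts are uncertain.

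The 250 bases before the starts of Rsad2, Ifi213 and Ifit3 are shown because they hold a match to GAAANNGAAA on either strand. This is a short pattern of the interferon-stimulated response element, which IRF factors are known to bind. Capitals mark the matches. The sequences are from RefSeq on GRCm38.p6, another build than that of the counts, 5′ to 3′ on the strand of the gene.
Rsad2, chr12:26456453-26456702, minus strand: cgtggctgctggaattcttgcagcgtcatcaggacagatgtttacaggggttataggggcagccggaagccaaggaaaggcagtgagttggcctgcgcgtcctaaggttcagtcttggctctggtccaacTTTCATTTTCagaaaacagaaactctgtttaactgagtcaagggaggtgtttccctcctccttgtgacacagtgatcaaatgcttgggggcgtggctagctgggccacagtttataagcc
Ifi213, chr1:173599273-173599522, minus strand: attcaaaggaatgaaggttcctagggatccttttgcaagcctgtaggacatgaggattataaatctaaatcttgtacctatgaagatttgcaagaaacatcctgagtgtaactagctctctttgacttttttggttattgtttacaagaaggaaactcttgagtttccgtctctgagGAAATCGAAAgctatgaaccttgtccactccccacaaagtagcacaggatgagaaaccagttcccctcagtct
Ifit3, chr19:34583279-34583528, plus strand: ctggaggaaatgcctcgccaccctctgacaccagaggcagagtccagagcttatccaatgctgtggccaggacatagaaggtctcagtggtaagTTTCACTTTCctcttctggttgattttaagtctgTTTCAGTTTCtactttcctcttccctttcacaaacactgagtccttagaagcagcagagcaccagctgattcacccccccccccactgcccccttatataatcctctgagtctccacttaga
Counted from the start, the match lies at -120 in Rsad2 and -73 in Ifi213, and Ifit3 holds 2, the first at -156. Of the 27 list genes 19 had an entry in the promoter table and 11 of these held the motif (57.9%), against 821 of 27025 promoters in all (3.04%). The windows of Oasl1 and Ifi44 held no match. A match is a description of the sequence, and binding was not measured.

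**Figure D3:**
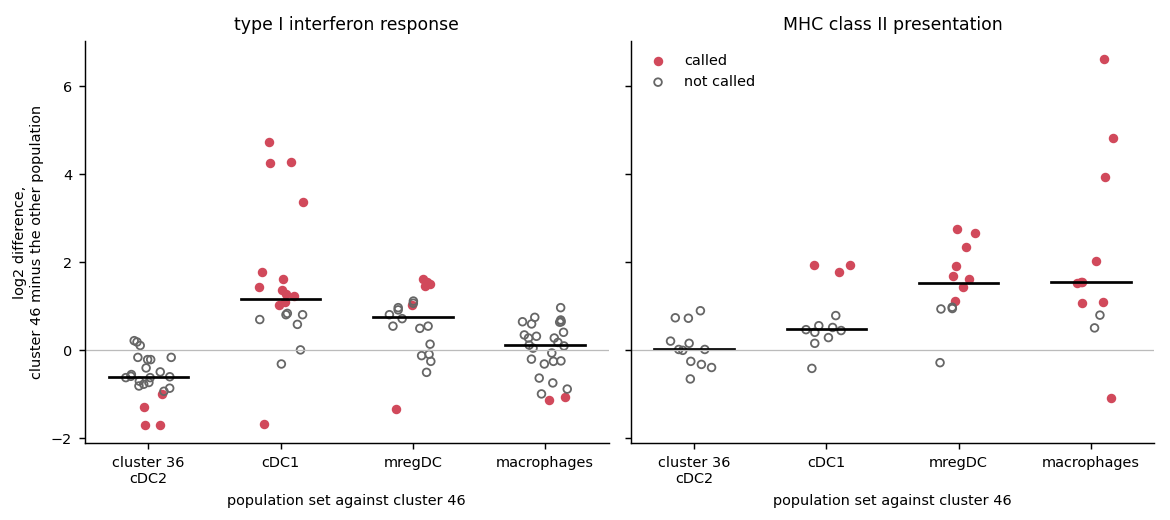
Log2 differences of cluster 46 minus each of 4 populations for the tested genes of the type I interferon response and of MHC class II presentation; filled points are called, open points are not, and lines are medians. Interferon genes have a median of -0.61 against cluster 36 and 1.18 against cDC1, and class II genes one of 1.54 against mregDC and 1.55 against macrophages.

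Set against cDC1, cluster 46 had less of 8 of 9 cDC1 markers, among them Xcr1, Cadm1 and Irf8, and more Cdh1, Il7r, Ifitm1, Ctnnd2 and Ccr1. Of 2734 genes tested, 310 (11.3%) were higher and 161 (5.89%) lower, and the median over all was 0. All 9 cDC1 markers were tested here and 4 against cluster 36. A marker high in cDC1 alone could hardly come out other than lower. The chemokine receptor Xcr1 was at 4.83 ± 9.73 CPM in cluster 46 and 468 ± 85.1 CPM in cDC1, and the adhesion molecule Cadm1 at 4.31 ± 5.35 and 428 ± 113 CPM. Irf8, the transcription factor that cDC1 depend on, was at 178 ± 43.4 CPM in cluster 46 and 1138 ± 146 CPM in cDC1. None of these 3 genes, chosen among the called ones, overlapped between the populations. Itgae, the marker not called, ranged over 95 to 249 CPM in cluster 46 and 111 to 358 CPM in cDC1, and Plet1 over 133 to 677 CPM in cluster 46 and 302 to 709 CPM in cDC1, so both overlapped. Adam19, a membrane protease, had 0 UMIs in cluster 46 and 120.4 ± 43.4 CPM in cDC1, at least 45.7-fold lower with 3 UMIs over the whole group as the floor. Gng12, Agpat3, the fatty acid receptor Ffar4, Asap2, Fnip2, the scavenger receptor Cd36 and Spp1 completed the genes named by size, with log2 differences of -4.71 to -3.67.

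The genes higher than in cDC1 were led by Cdh1, with 147 UMIs in cluster 46 and 0 in cDC1, at least 36.4-fold higher by the same floor. Il7r, the receptor chain for interleukin 7, was at 143 ± 54.2 CPM in cluster 46 and 1.08 ± 2.64 CPM in cDC1. Ifitm1, an interferon-induced membrane protein, was at 3404 ± 508 CPM in cluster 46 and 68.1 ± 109.5 CPM in cDC1, and Ctnnd2, a catenin that binds cadherins, at 309 ± 74.6 and 4.57 ± 7.41 CPM. Ccr1, a receptor for inflammatory chemokines, was at 199 ± 43.2 CPM in cluster 46 and 3.04 ± 4.76 CPM in cDC1. The mice of the populations did not overlap for any of these 5 genes, which were picked by size and the same direction in every mouse. Clec4n, a receptor for fungal mannans, Ifit1bl1, Maml3, Ifitm6 and Creb5 completed the genes named by size. Cd80 and Cd86, the ligands of the T cell receptor CD28, were higher as well: Cd86 was at 1297 ± 234 CPM in cluster 46 and 514 ± 138 CPM in cDC1. Il1b, an inflammatory cytokine, was at 2079 ± 698 CPM in cluster 46 and 475 ± 321 CPM in cDC1 (log2 difference 2.23, SE 0.30).

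Set against mregDC, cluster 46 had less of most mregDC markers, among them Ccr7, Fscn1 and Ccl22, and more of 8 of 12 class II genes. Of 2055 genes tested, 636 were called, of which 339 (16.5% of those tested) were lower and the rest (14.5%) higher, with a median of 0.03 over all. Of 11 tested mregDC markers 10 were lower and 0 higher. Against cluster 36, 4 of the 12 listed were tested. A marker high in mregDC alone could hardly come out other than lower. Ccr7, which guides dendritic cells to lymph nodes, was at 5.99 ± 5.25 CPM in cluster 46 and 2299 ± 352 CPM in mregDC. Fscn1, the actin bundler of mature dendritic cells, was at 3.12 ± 4.05 CPM in cluster 46 and 1158 ± 566 CPM in mregDC, and Ccl22, a chemokine for regulatory T cells, at 7.33 ± 6.69 and 932 ± 477 CPM. Il12b, a chain of interleukin 12, had 0 UMIs in cluster 46 and was at least 351-fold lower than in mregDC. Mreg, Il4i1 and Cacnb3 also had 0 UMIs each in cluster 46 and were at least 225-fold, 171-fold and 169.6-fold lower. Adam19, Adcy6 and Strip2 completed the genes named as lower. Relb, of the noncanonical NF-kappaB pathway, was at 55.8 ± 15.8 CPM in cluster 46 and 684 ± 76 CPM in mregDC. Cd40, Cd83, Pdcd1lg2 and Cd274 were lower, 4 of 6 tested costimulation and checkpoint genes, while Cd80 and Cd86 were not called (log2 differences -0.41 and 0.19).

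MHC class II genes went the other way, with 8 of 12 higher, 0 lower and a median of 1.54. H2-Ab1, a class II chain, was at 9263 ± 658 CPM in cluster 46 and 3227 ± 1578 CPM in mregDC, and Ciita, the master regulator of class II transcription, at 147 ± 34.5 and 39.6 ± 38.4 CPM. Ctnnd2, the integrin chain Itgb7, which pairs with CD103, the cyclase Qpct, Arhgap15, the human transgene FCGR2B, Gpr141, Emb, Cdh1, Ifitm6 and Sla were the 10 named as higher, with log2 differences of 4.07 to 6.02. Itgb7 was at 186 ± 41.1 CPM in cluster 46 and 2.18 ± 5.35 CPM in mregDC, with no overlap. Plet1 ranged over 0 to 249 CPM and Itgae over 0 to 82.9 CPM in mregDC.

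Set against macrophages, cluster 46 had more of 9 of 12 class II genes, Flt3, Plet1 and Epcam, and less of 15 of 16 lysosome and scavenging genes and of 27 of 30 G2 and M phase genes. Of 11018 genes tested, 772 (7.01%) were higher and 1516 (13.8%) lower. The macrophages gave far more UMIs, so more genes were tested. A gene high in macrophages alone could enter, and could then hardly come out other than lower. Of 30 G2 and M phase genes 30 were tested here and 1 against cluster 36. The median over all genes tested was -0.23, against which the log2 values are to be read. All 11 tested macrophage markers were lower: C1qa was at 114 ± 36.9 CPM in cluster 46 and 5542 ± 401 CPM in macrophages, and the F4/80 gene Adgre1 at 4.85 ± 4.69 and 358 ± 32.4 CPM. Of 16 lysosome and scavenging genes 15 were lower, among them the cathepsin gene Ctsb at 142 ± 33 CPM in cluster 46 and 1615 ± 182 CPM in macrophages. Ptgs1, a prostaglandin synthase, and Tmem37 had 0 UMIs each in cluster 46, at least 21.9-fold and 22.2-fold lower. The call of Ptgs1 was lost with no replicate block. The complement receptor C5ar1, Tmem119, the cholesterol exporter Abca1, Cxcl14, Psd3, the platelet factor Pf4 and Rhob were among the genes named as lower.

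Of 12 class II genes 9 were higher than in macrophages and 1, the protease gene Ctss, lower. H2-Oa, a chain of a modulator of peptide loading, was at 304 ± 51.5 CPM in cluster 46 and 3.16 ± 0.878 CPM in macrophages. Plet1 was at 417 ± 227 CPM in cluster 46 and 0.194 ± 0.169 CPM in macrophages, and Kit at 178 ± 41.9 and 0.356 ± 0.219 CPM. Epcam was at 74.8 ± 41.2 CPM in cluster 46 and 0.0764 ± 0.105 CPM in macrophages, and Ppp1r14a had 119 UMIs in cluster 46 and 1 in macrophages. Timd4, a phosphatidylserine receptor, the short-chain fatty acid receptor Ffar2, Klri1, Gpr33, the actin-severing protein Scin and the protease inhibitor Spint2 completed the genes named as higher. Free RNA held 6.78 CPM of Plet1 and 1.59 CPM of Epcam, under the levels in cluster 46.

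The human Fc gamma receptor transgenes bind the Fc part of the antibodies given. FCGR2B, the inhibitory receptor, was at 1196 and 1530 CPM in the N297A mice, 1408 CPM in the GA-aFuc mouse, 1843 CPM in the GITR/Syn GA-aFuc mouse and 1203 and 1372 CPM in the Untreated mice. It was at 1342 ± 294 CPM in cluster 36, 199.5 ± 47 CPM in cDC1, 55.5 ± 34.9 CPM in mregDC and 342 ± 77.6 CPM in macrophages, and the cluster 46 mice overlap those of cluster 36 and none of the other 3 populations. FCGR2A, an activating receptor, was at 88 ± 52 CPM in cluster 46 and 1056 ± 151 CPM in macrophages, and FCGR1A, the high-affinity receptor, at 37.3 ± 13.4 and 221 ± 55.5 CPM. FCGR3B was at 1189 ± 300.4 CPM in cluster 46 and 3591 ± 278 CPM in macrophages. FCGR3A and FCGR3B, and FCGR2B and FCGR2C, are near-identical pairs, so the split within a pair is uncertain. Tnfrsf18, which encodes GITR, was at 32.1 ± 12.1 CPM in cluster 46 and 2.53 ± 0.544 CPM in macrophages, with 47.6 CPM in free RNA. Its median was 23.4 CPM in cluster 36, 25.8 CPM in cDC1 and 85.7 CPM in mregDC. The ranges of these 3 populations overlap that of cluster 46, so the level is not particular to it. The ligand gene Tnfsf18 was at 0 in cluster 46.

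Cell cycle genes were summarised as the share of cells with at least 3 UMIs of 27 S phase and 30 G2 and M phase genes after thinning to 2000. This was 10 of 87 cells of cluster 46 (11.5%, 95% exact interval 5.65 to 20.1), 21 of 100 in cluster 36 (21.0%), 21 of 47 cDC1 (44.7%), 5 of 56 mregDC (8.93%) and 1636 of 4086 macrophages (40.0%). Without thinning the shares were 90.8% in cluster 46, 86.1% in cluster 36, 95.7% in cDC1, 64.9% in mregDC and 94.8% in macrophages. By mouse, cluster 46 had 17.6% and 12.5% in the N297A mice, 6.25% in the GA-aFuc mouse, 15.0% in the GITR/Syn GA-aFuc mouse and 10.0% and 6.25% in the Untreated mice, each resting on 1 to 3 cells. The cluster 46 share was below that of cDC1 in 6 of 6 mice, with a mean difference of -34.6 ± 12.0 percentage points (SD), and below that of macrophages in 6 of 6, with -28.9 ± 8.11. The summed S phase level had the same order, at 418 to 641 CPM in cluster 46, 929.5 to 1570.3 CPM in cDC1 and 894 to 1209.5 CPM in macrophages, with 1005 CPM in free RNA. The G2 and M phase sum was 143 to 351 CPM in cluster 46, 175 to 3574 CPM in cDC1 and 878 to 1382 CPM in macrophages. Cluster 46 and cDC1 thus overlapped in it. The cDC1 and macrophages were taken as whole types, while cDC2 were split by cluster. Of another cDC2 cluster, numbered 64, 12 of 12 cells passed the limit. The contrast thus describes cluster 46 and not all cDC2.

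Against cluster 36 no order can be read. The thinned share was lower in 5 of 6 mice, with a mean difference of -7.95 percentage points (SD 8), while the S phase sum was 418 to 641 CPM in cluster 46 and 252 to 568 CPM in cluster 36. Mcm4, a helicase subunit of replication forks, was higher in cluster 46, at 76.2 ± 18.7 CPM against 34.6 ± 22 CPM in cluster 36. Mki67 and Top2a, which mark dividing cells, were at 6.1 ± 4.77 and 12.7 ± 8.01 CPM in cluster 46 and at 98 ± 17.1 and 164 ± 36.5 CPM in macrophages. Ccnb1, Ccna2, Hmmr, Nuf2 and Anln were at 0 in cluster 46. Against macrophages 27 of 30 G2 and M genes and 16 of 27 S phase genes were lower, and Mcm4 alone of these genes was higher. Genes high in macrophages alone could enter these counts.

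**Figure D4:**
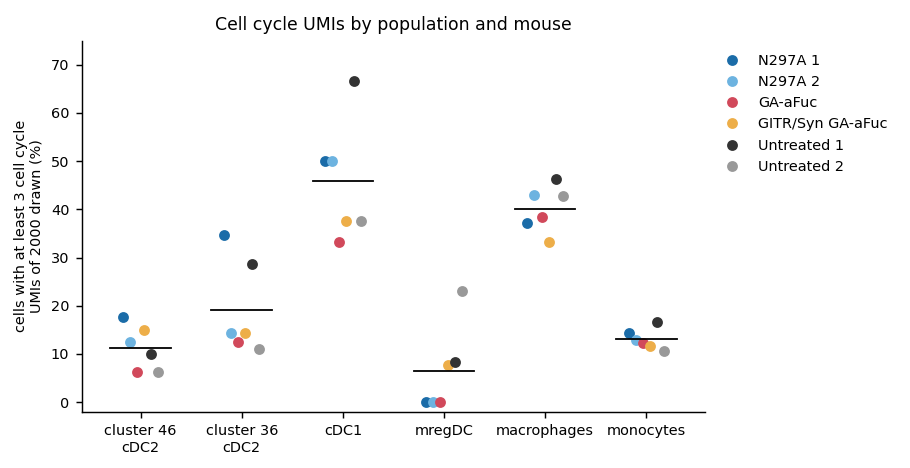
Share of cells with at least 3 UMIs of the cell cycle genes after thinning to 2000 UMIs, in each of 6 mice (points) with the mean of mice (line), by population. Cluster 46 lies at 6.25 to 17.6%, below every mouse of cDC1 (33.3 to 66.7%) and of macrophages (33.2 to 46.4%), and overlaps cluster 36 (11.1 to 34.6%).

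Treatment was compared within cluster 46 in 1 fit over the 6 mice, in which groups of 1 mouse take their spread from those of 2. Its p-values measure only the spread between these mice. Of 4749 genes tested with edgeR, 0 (0%) passed an adjusted p of 0.05 in N297A against Untreated mice, 3 (0.0632%) in GA-aFuc and 1 (0.0211%) in GITR/Syn GA-aFuc. For N297A, 187 genes had an unadjusted p under 0.05, and with DESeq2 0 passed the adjusted threshold and 17 of 13345 the unadjusted one. The comparisons share the Untreated mice.

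The genes that passed were 2 chemokines and an adaptor. Ccl17, which draws T cells that carry CCR4, was at 56.7 and 0 CPM in the N297A mice, 245 CPM in the GA-aFuc mouse, 326 CPM in the GITR/Syn GA-aFuc mouse and 87 and 9.36 CPM in the Untreated mice. The GA-aFuc and the GITR/Syn GA-aFuc mouse lie above both Untreated mice, by log2 differences of 2.56 (SE 0.56, edgeR adjusted p = 0.0142) and 2.96 (SE 0.54, edgeR adjusted p = 0.00081). In the GITR/Syn GA-aFuc mouse 71 of 75 Ccl17 UMIs came from 2 of 20 cells, and without the top cell the adjusted p was 0.999. In the GA-aFuc mouse 8 of 16 cells had Ccl17, and the adjusted p was 0.0095 without the top cell, 0.999 with all cDC2 cells and 1 without the top 5% of cells by UMIs. Ccl3, which draws monocytes and T cells, was at 40.5 and 40.8 CPM in the N297A mice, 147 CPM in the GA-aFuc mouse, 17.4 CPM in the GITR/Syn GA-aFuc mouse and 0 and 18.7 CPM in the Untreated mice. It rose in the GA-aFuc mouse (log2 difference 3.59, SE 0.75, edgeR adjusted p = 0.00789), where 27 of 33 UMIs came from 2 cells, and without the top cell the adjusted p was 0.563. Free RNA held 154 CPM of Ccl3, and its part was not tested.

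Grap2, an adaptor of immune receptor signalling, was at 251 and 81.6 CPM in the N297A mice, 44.5 CPM in the GA-aFuc mouse, 209 CPM in the GITR/Syn GA-aFuc mouse and 348 and 225 CPM in the Untreated mice. It fell in the GA-aFuc mouse (log2 difference -2.66, SE 0.57, edgeR adjusted p = 0.00789), and without the top cell the adjusted p was 0.129. In the first Untreated mouse 26 of its 44 UMIs came from 1 cell.

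Each of the 4 calls was lost under some settings. DESeq2 gave adjusted p of 0.999 to 1. Without the first N297A mouse the edgeR adjusted p was 0.997 for Ccl17 and 0.445 for Ccl3 and Grap2 in GA-aFuc, and 1 for Ccl17 in GITR/Syn GA-aFuc. Ccl3 and Grap2 also lost their call without the first Untreated mouse, and Ccl17 lost both of its calls without the second. In N297A, where 0 passed, the genes with the smallest p were Btla, an inhibitory receptor (log2 difference -2.45, SE 0.58, edgeR adjusted p = 0.125), the transcription factor Bhlhe40 (1.58, SE 0.40, adjusted p = 0.145) and Tnip3 (-2.43, SE 0.63, adjusted p = 0.145). Btla was at 12.2 and 51 CPM in the N297A mice against 87 and 173 CPM in the Untreated mice.

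Of the 12 class II and 27 interferon genes 0 were called in any treatment. The interferon list had a positive difference for 22 of 27 genes in N297A (median 0.22), 16 in GA-aFuc (median 0.10) and 19 in GITR/Syn GA-aFuc (median 0.35), beside medians of -0.01, -0.03 and -0.05 over all genes. Of 10 tested chemokines 2 were called in GA-aFuc, 1 in GITR/Syn GA-aFuc and 0 in N297A. Plet1, Itgae and Cdh1 were highest in the GA-aFuc mouse, at 677, 249 and 183 CPM, and were not called in any treatment.

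Cluster 46 made up 1.14% and 0.563% of annotated cells in the N297A mice, 1.12% in the GA-aFuc mouse, 1.45% in the GITR/Syn GA-aFuc mouse and 0.674% and 1.05% in the Untreated mice. The N297A and Untreated mice overlap, with a difference of -0.00951 percentage points (two-sided exact permutation p = 1, the smallest possible with 2 against 2 mice being 0.333). The 95% exact interval of the GITR/Syn GA-aFuc share, 0.888 to 2.23, overlaps those of the Untreated mice, 0.324 to 1.24 and 0.603 to 1.7. These intervals cover counting error only. The cell cycle share differed by 6.95 percentage points between N297A and Untreated mice (two-sided exact permutation p = 0.333), with 1 to 3 such cells a mouse, and the direction turned in 5 alternatives, with differences of -16.7 to -2.13.

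**Figure D5:**
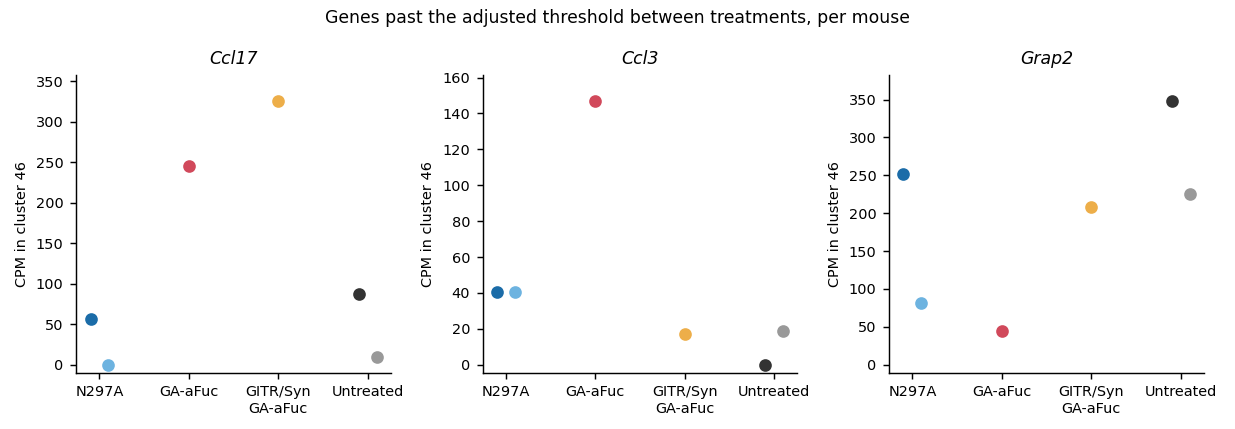
CPM of Ccl17, Ccl3 and Grap2 in cluster 46 in each mouse (1 point a mouse) by treatment. The GA-aFuc point is the highest for Ccl3, at 147, and the lowest for Grap2, at 44.5, and the GITR/Syn GA-aFuc point is the highest for Ccl17, at 326.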

How the data were processed

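RNA and hashtag UMIs were measured by 10x Genomics sequencing of 1 pooled library. The deposited matrix holds whole-number counts per feature and barcode, not normalized; the authors made it with Cell Ranger 9.0.0, per the file headers, and its feature names join GRCh38 and GRCm39 genes, the builds in the submitters' processing notes. The deposited cell table names the treatment, type and cluster of a cell, and the sources used here do not say how cells were filtered and clustered. The top hashtag gave the mouse. Of the library's cells, 33 had a hashtag of another treatment and 18 a barcode listed more than once, and neither were used.

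UMIs were summed per mouse and population, with at least 5 cells a mouse. edgeR 4.0.16 (R 4.3.3, limma 3.58.1; TMM, filterByExpr, robust quasi-likelihood test) compared populations with the mouse as block, since each mouse gave both populations, and the 4 treatments in 1 fit. P-values were adjusted by Benjamini-Hochberg over all genes tested. DESeq2 1.42.0 was an alternative. The fits were tested on simulated data. Named genes are the 10 with the largest log2 difference in each direction among called genes with the same direction in every mouse (between treatments, with no overlap) and at least 50 CPM on the higher side; other genes are members of 29 lists. Members, lists and rules were chosen with earlier results of these data known. Shares carry 95% Clopper-Pearson intervals. In cluster 46, 3 UMIs over all cells equal 2.63 CPM. Promoter sequences are RefSeq's on GRCm38.p6. A few genes that the rule names or the lists hold are not reported here.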

Additional observations from a re-analysis of the deposited data

How the results depend on the processing

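No named gene changed direction under any alternative run. Between populations 7 of 284 alternative values lost the call against cluster 36 (Ccl5 and Lyz2), 1 of 277 against macrophages (Ptgs1) and 0 against cDC1 and mregDC. Counts of called genes stayed within 1.5 times except with no filter on low counts, which gave 229 against cluster 36, 1143 against cDC1 and 1569 against mregDC, with DESeq2 against mregDC (1052), and without cells past the cell cycle limit against cDC1 (293, with 1775 genes tested). Leaving out 1 mouse gave 79 to 124 against cluster 36, 407 to 565 against cDC1, 626 to 765 against mregDC and 2060 to 2173 against macrophages. With no replicate block the counts were 102, 460, 629 and 2330, in the same order. A minimum of 10 cells a mouse was not run for cDC1. Treatments were given to different animals, so no paired fit was made between them.

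For N297A against Untreated 1 gene passed with all cDC2 cells, 1 without the top 5% of cells by UMIs, 1 without the top cell of each gene (chosen after seeing the data) and 0 to 5 without 1 mouse. For GA-aFuc 0 passed with DESeq2, 1 without the top cell and 0 to 8 without 1 mouse. For GITR/Syn GA-aFuc 0 passed with DESeq2, 8 with all cDC2 cells, 0 without the top 5% of cells, 0 without the top cell and 0 to 3 without 1 mouse. The N297A minus Untreated difference in the share of cluster 46 was 0.213 percentage points in table entries outside this library and -0.3 to 0.281 without 1 mouse (0.281 without the second N297A mouse, 0.18 without the second Untreated mouse). The cell cycle difference of cluster 46 minus cluster 36 was 4.14 with no thinning and 0.868 at 1 UMI. That of N297A minus Untreated was -2.13 with no thinning, -16.7 at 5000 UMIs, -5.77 at 1 UMI, -5.18 at 5 UMIs and -3.12 for G2 and M genes only. The cause was not tested for any of these.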

Other observations

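The cDC2 cluster numbered 64 held 12 cells, too few for a comparison. Itgae had a UMI in 9 of 12 cells, Cdh1 in 11, Plet1 in 8 and Ppp1r14a in 10, while Cd209a was in 1 and Ccr2 in 2. The median was 22863 UMIs per cell, against 12676 in cluster 46, and 12 of 12 cells passed the limit of 3 cell cycle UMIs.

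Another 118 table entries named cDC2 of cluster 46 lie outside this library. They made up 1.12% of such entries in N297A (20 of 1785), 0.861% in GA-aFuc (28 of 3253), 1.48% in GITR/Syn GA-aFuc (54 of 3641) and 0.907% in Untreated (16 of 1764). The mice behind these entries are not known, so no comparison was made.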
